A study of Drosophila melanogaster with 2 samples.

Results

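The genes described here encode the translation initiation and elongation factors of the fruit fly Drosophila melanogaster, and the measurement is where a tagged forkhead protein, Crg-1, was found near their start sites. The members were all protein-coding genes whose Ensembl symbol begins with eIF or eEF and a digit. There were 51 of them among the 13945 protein-coding genes of the 6 chromosome arms, 44 initiation and 7 elongation factors. Chromatin came from whole adult flies, males and females together and of unknown age, of a transgenic line in which GFP is fused to the C terminus of Crg-1, and it was precipitated with an antibody to GFP. The data form 1 group of 2 biological replicates, numbered 2 and 3 in the labels. The line, tag and antibody are common to both, no untagged sample was analysed here, and the sources used here do not give the cell types that make the fusion protein. Binding in a small tissue and weak binding throughout the animal cannot be told apart in whole flies.

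Each replicate list and the pooled list held 30000 candidate regions (dm6 build). The thresholded list held the 3707 regions that passed the authors' irreproducible discovery rate, a test of whether ranks repeat between replicates. A gene counts below as having a promoter region when a thresholded summit, the highest point of a region, lay within 500 bp of any of its start sites. Signal is the authors' height of a region, which ran from 109.7 to 1889 in the thresholded list, and rank 1 is the highest signal of a list. Read depth is unknown, so no counting interval could be given.

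Initiation factors bring the small ribosomal subunit, the initiator tRNA and the capped end of an mRNA together. eIF2 carries the initiator tRNA and is recharged with GTP by eIF2B. eIF3 is the large scaffold on the small subunit, and the cap is read by eIF4E, held by the scaffold eIF4G and the helicase eIF4A. eIF1 and eIF1A control start codon choice, eIF5 and eIF5B govern GTP hydrolysis and subunit joining, and eIF6 keeps the large subunit from joining too early. In elongation eEF1 delivers aminoacyl-tRNAs and eEF2 moves the ribosome along the mRNA. Most of these proteins are needed in every growing cell, and several fly factors also have duplicates used mainly in the germ line.

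Promoter regions were found at 21 of the 51 factor genes, or 41.2%, against 22.9% of all protein-coding genes. By role they included eIF6, the tRNA carrier genes eIF2alpha and eIF2gamma, both start codon factors, 5 of 16 eIF3 genes, the helicase eIF4A and 4 of the 7 elongation factor genes. They were missing at the cap-binding gene eIF4E1, at both eIF4G genes, at eIF4B and at eIF5. The median signal of the 21 strongest promoter regions was 207 (range 117 to 1056), against 182 over all 3195 genes with one. A candidate region of any strength in the pooled list was present at 39 members, or 76.5%, against 57.6% of all genes. No test was made of the group of members, which was drawn up with earlier results of these lists known.

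**Figure D1:**
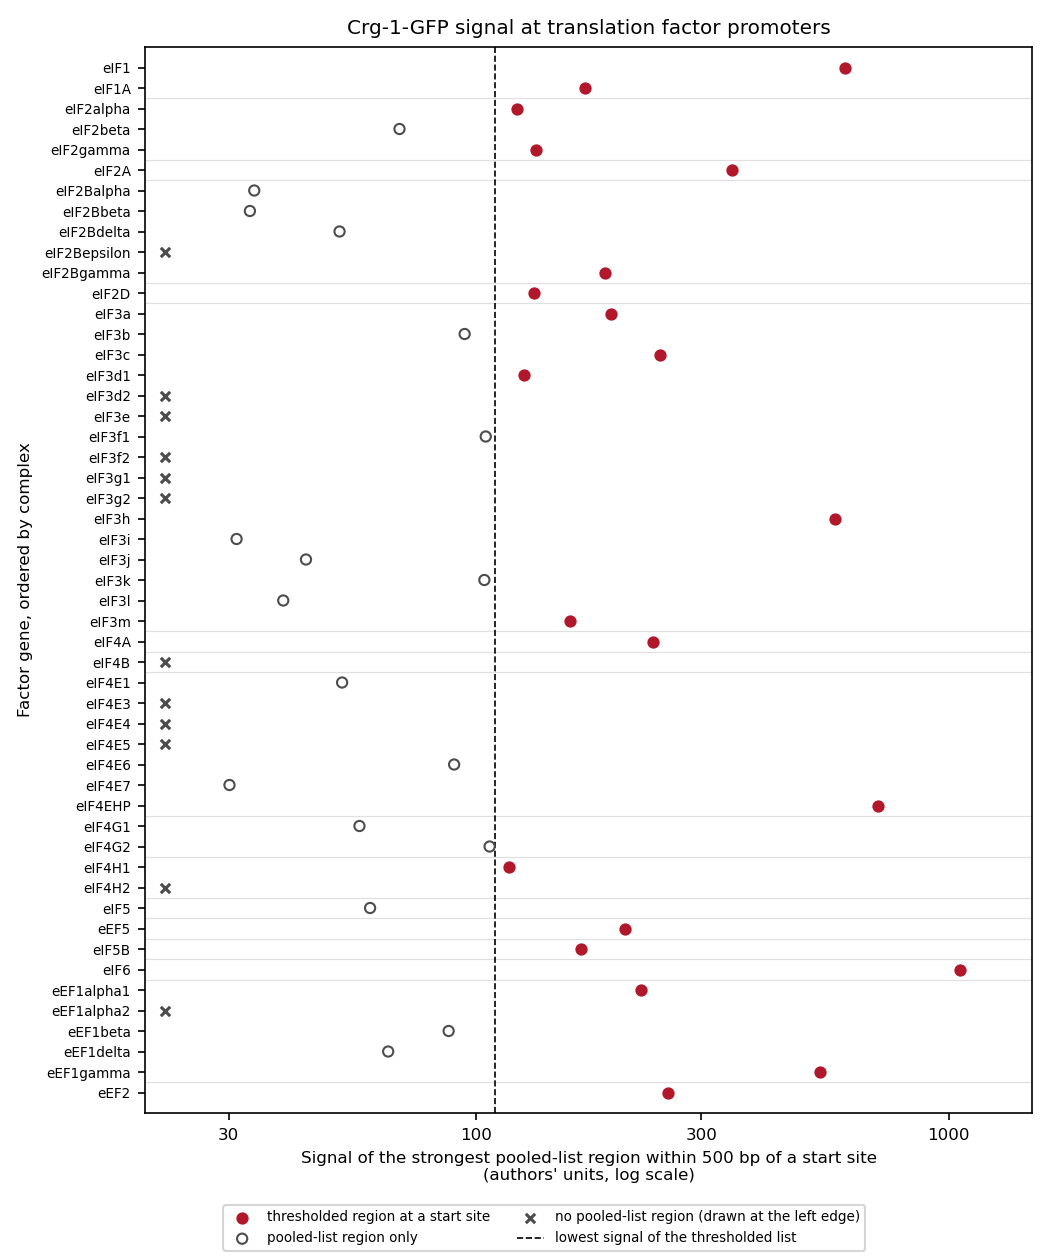
Signal, in the authors' units on a log axis, of the strongest pooled-list region within 500 bp of a start site of each of the 51 factor genes, ordered by complex. Filled points are the 21 genes with a thresholded region, open points the 18 with a pooled-list region only, crosses at the left edge the 12 with none, and the dashed line is the lowest thresholded signal, 109.7; eIF6, at 1056, lies highest.

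More than 1 start site was annotated at 20 of the 51 factor genes, against 3699 of all 13945 genes. Of these 20 members 13 had a promoter region, or 65.0%, against 36.3% of all such genes. Among the 31 members with 1 start site the figures were 8 and 25.8%, against 18.1%. The members' share therefore lay above that of all genes in both classes, by more in the class with several start sites. The part of start site number in the overall share was not tested.

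The strongest region of the group lay at eIF6 (FBgn0034915), with a pooled-list signal of 1056 and rank 15. Its signal was 613 in replicate 2 and 445 in replicate 3, where it ranked 19 and 11. The region covered chr2R:23850238-23850561 and its summit was 95 bp upstream of the gene's only start site, within an intron of ytr and an exon of the antisense RNA gene asRNA:CR45928. That antisense RNA starts 66 bp from the summit, nearer than eIF6 does. Both replicates thus placed this promoter among their 20 highest regions.

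The next highest signals were at eIF4EHP, eIF1, eIF3h and eEF1gamma, which span cap binding, scanning, the scaffold and tRNA delivery. eIF4EHP (FBgn0053100), which encodes a cap-binding protein that represses translation, had a region of signal 709 at chr3R:24108915-24109359. Its signal was 418 in replicate 2 and 294 in replicate 3, at ranks 69 and 57. eIF1 (FBgn0035423) had a region of signal 603 at chr3L:3222897-3223150, with 372 in replicate 2 and 226 in replicate 3, at ranks 86 and 104. Neither summit was nearest to the factor gene. That of eIF4EHP was 193 bp upstream of its start and 183 bp from the start of CG18428, and that of eIF1 was 324 bp upstream of its start and 57 bp from the start of the ribosomal protein gene RpL28. The small nucleolar RNA gene snoRNA:Or-CD11a starts 476 bp from that eIF1 summit. A weaker region of signal 184 lay 123 bp upstream of eIF1.

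eIF3h (FBgn0022023) had a region of signal 575 at chr2L:5052696-5052917, with 385 in replicate 2 and 182 in replicate 3, at ranks 81 and 176. Its summit was 13 bp upstream of one start site and inside the 5′ UTR of a longer transcript, with the start of senju 50 bp away. eEF1gamma (FBgn0029176), a subunit of the exchange factor that recharges eEF1alpha, had a region of signal 535 at chr3R:29220026-29220243. Its signal was 328 in replicate 2 and 205 in replicate 3, at ranks 117 and 135, with the summit 35 bp upstream of a start site and no other gene's start site within 500 bp. In both replicates eEF1gamma and eIF3h lay at rank 176 or better. A pooled-list rank of 100 or better was held by 4 of the 21 members, eIF6, eIF4EHP, eIF1 and eIF3h, and by 107 of the 3195 genes with a promoter region, or 3.35%. At eIF6, eIF4EHP and eIF1 that summit lay nearer another gene's start site, and only that of eIF3h was nearest to its factor gene. How many of the 107 genes had a nearer neighbour was not computed.

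The bases around the summits are shown for eIF4EHP, eIF1, eIF3h and eEF1gamma, whose signals followed that of eIF6. They are also shown for 3 weaker promoters, eIF3a, eIF2gamma and eIF2alpha, chosen after their letters were seen because they carry the DRE word, TATCGATA, the binding site of the promoter factor DREF. They are read 5′ to 3′ on the plus strand of the dm6 genome from 50 bp before to 50 bp after the summit, shortened where more than 30 bases would belong to a UTR. The window of eIF3h, inside its 5′ UTR, was cut on both sides to 30 bases around the summit. Capitals mark TATAAA at eIF4EHP, GGTCACACT (the core of Ohler motif 1) near the right end of eIF2alpha, and TATCGATA elsewhere. The window of eIF3h holds none of the words.
eIF4EHP (chr3R:24109103-24109203): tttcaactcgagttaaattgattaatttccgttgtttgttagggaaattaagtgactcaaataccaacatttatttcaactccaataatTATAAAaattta
eIF1 (chr3L:3222967-3223067): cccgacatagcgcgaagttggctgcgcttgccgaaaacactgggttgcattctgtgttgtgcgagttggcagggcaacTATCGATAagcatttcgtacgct
eIF3h (chr2L:5052778-5052807): ctgcagtggtaaaagggcgtttcgcaacac
eEF1gamma (chr3R:29220087-29220187): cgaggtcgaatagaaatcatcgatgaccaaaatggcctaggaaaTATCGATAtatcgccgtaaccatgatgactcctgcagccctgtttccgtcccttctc
eIF3a (chr3R:4433898-4433994): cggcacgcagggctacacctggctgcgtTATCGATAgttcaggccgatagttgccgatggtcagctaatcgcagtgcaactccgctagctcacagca
eIF2gamma (chr3R:15263454-15263554): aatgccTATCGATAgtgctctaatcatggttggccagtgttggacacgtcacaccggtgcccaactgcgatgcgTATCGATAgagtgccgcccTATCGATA
eIF2alpha (chrX:16446964-16447062): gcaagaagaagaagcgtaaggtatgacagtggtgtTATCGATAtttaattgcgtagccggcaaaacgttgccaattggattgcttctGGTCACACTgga

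The DRE word, which reads the same on both strands, lay within 50 bp of the summit at 6 of the 21 strongest promoter regions, or 28.6%. These were eIF1, eIF2alpha, eIF2gamma, eIF2A, eIF3a and eEF1gamma, and eIF2gamma held 3 copies in the window printed above. Over all 2628 thresholded summits near a start site the word was found in 5.33%, and over the 8532 pooled-list summits near a start site that did not pass, in 2.39%. These summits, used for the other words at summits too, include weaker second regions of a gene and regions at non-coding starts. Each member gave its strongest region only, so the units differ. Within 25 bp of the summit it was found at 3 members, and within 100 bp at 8. The share over all summits was computed for 50 bp only, so the other windows have no background. Genes that share a promoter share the word, so the copies at eIF1, eIF2gamma and eIF3a are equally those of RpL28, Su(var)3-9 with Set, and CG1074.

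The forkhead core GTAAACA was searched on both strands in the same windows. It was present at 3 of 21 members, eIF2A, eIF5B and eEF1alpha1, or 14.3%, against 4.79% of all thresholded promoter summits and 3.55% of those that did not pass. The same letters reversed, ACAAATG, were found at no member, against 2.40% of thresholded summits. With 25 bp on each side eIF5B alone held the forkhead word, and with 100 bp eIF4EHP and eEF2 were added, again without a share over all summits. None of the 3 leading regions, eIF6, eIF4EHP and eIF1, held it within 50 bp.

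The other words were near their background or rare. TATAAA was found at eIF2Bgamma, eIF4EHP and eIF6, or 14.3%, against 17.0% of thresholded summits, CAGCTG at eIF2Bgamma (4.76% against 7.76%), and GGTCACACT at eIF2alpha (4.76% against 2.05%). The TCT initiator, known from fly ribosomal protein genes, was sought as CTTTT on the gene's strand with its first base within 5 bp of a start site. It was present at 3 of 51 members, eIF4A, eIF3f1 and eIF3i, or 5.88%, against 2.88% of all protein-coding genes, and of these 3 only eIF4A had a promoter region. No word contains another, though some can overlap at their ends. The end of TATCGATA can begin TATAAA, and the end of GTAAACA can begin its reversed control ACAAATG. A match is a match of letters only.

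Beside eIF1, promoter regions of lower signal were found at the other start codon factor gene and at 2 of the 3 eIF2 subunit genes. eIF1A had one of 170.5, ranked 1625 and 1935 in replicates 2 and 3, 146 bp upstream of its start and 73 bp from the start of Vps39, a gene of endolysosomal tethering. The regulatory subunit gene eIF2alpha had 122 (ranks 3599 and 2891), and the tRNA-binding GTPase gene eIF2gamma had 134 (ranks 2904 and 1972). eIF2gamma shares its start site with the heterochromatin gene Su(var)3-9, so that their signal is one and the same. eIF2beta had only candidate regions, the best at pooled rank 7869 and at ranks 5339 and 4986 in the replicates.

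Of the 5 subunit genes of the exchange factor eIF2B only eIF2Bgamma had a region past the threshold, 1 of 5 beside 22.9% of all genes. Its signal was 188 at ranks 1782 and 1167, with the summit 30 bp downstream of the start. eIF2Balpha, eIF2Bbeta and eIF2Bdelta had pooled-list regions of rank 24033, 24824 and 12444, and eIF2Bepsilon, the catalytic subunit gene, had none there and 1 of rank 12249 in replicate 2 alone. The genes of the alternative initiator tRNA binding proteins both had promoter regions, eIF2A at 349 (ranks 454 and 338) and eIF2D at 133 (ranks 2992 and 2504).

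The scaffold eIF3 was the complex with the most genes, and 5 of the 16, or 31.2%, had a promoter region, against 22.9% of all genes. Beside eIF3h these were eIF3c at 245 (ranks 1056 and 664), eIF3a at 194 (1331 and 1289), eIF3m at 158 (1949 and 2117) and eIF3d1 at 127 (4827 and 1733). The summit of eIF3a was 53 bp from its start and 17 bp from that of CG1074. That of eIF3m was 165 bp from its start and 61 bp from that of CG8323. Counted by nearest start site only, 3 of the 16 had a promoter region, beside 16.8% of all genes. The core RNA-binding subunit gene eIF3b reached pooled rank 4750, eIF3k 4063 and eIF3f1 4006, all below the threshold at rank 3707. eIF3j, eIF3l and eIF3i were at ranks 16158, 19259 and 27414, and eIF3e, eIF3d2, eIF3f2, eIF3g1 and eIF3g2 had no pooled-list region. Signals within this one complex thus ran from rank 99 at eIF3h to no region at all.

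Of the cap-binding machinery the helicase gene eIF4A had a region of 237, ranked 968 in replicate 2 and 849 in replicate 3, with its summit 114 bp upstream of one of 3 start sites. eIF4H1, a partner of the helicase, had the lowest signal of the 21, 117, at ranks 3534 and 3156. eIF4B, the other partner, had no region in any list, and the nearest thresholded summit was 591 kb away. It lies at chr3L:27842669-27858271, near the end of an arm of 28110227 bp, and the share of genes with a region in that stretch was not computed. The scaffold gene eIF4G1, on chromosome 4, reached pooled rank 10618, with 10175 in replicate 2 and 15735 in replicate 3. Chromosome 4 had promoter regions at 11 of its 80 protein-coding genes, or 13.8%.

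eIF5B, the subunit-joining GTPase, had a region of 167 at ranks 1879 and 1720, and eEF5, the hypusine-bearing factor also called eIF5A, had 207 at ranks 1726 and 868. eIF5, the GTPase-activating protein of eIF2, reached only pooled rank 9792, and the nearest thresholded summit was 98.4 kb from its start sites. Among elongation factors eEF2 had 255 (ranks 630 and 1036), its summit 3 bp upstream of a start, and eEF1alpha1 had 223 (ranks 1233 and 1071). eEF1alpha1 had 3 thresholded regions, at 223, 183 and 137, and its strongest lay 101 bp upstream of its start and 55 bp from that of ERp60, a protein disulfide isomerase gene of the endoplasmic reticulum. eEF1beta and eEF1delta, which pair with eEF1gamma in the exchange factor, had none and stood at pooled ranks 5431 and 8540.

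Paralogues were compared within families. The 7 families of factor genes whose symbols differ in a closing number, with eIF4EHP joined to eIF4E, held 19 genes, of which 4 had a promoter region, or 21.1%, near the 22.9% of all protein-coding genes, and 17 of the other 32 members had one, or 53.1%. Family genes also had fewer start sites, with 1 at 14 of the 19 against 17 of the 32. Among genes with 1 start site 2 of 14 family genes and 6 of 17 others had a region, and among those with more than 1 it was 2 of 5 and 11 of 15. The families are small, the genes were grouped by name, and neither the difference nor the part of start site number in it was tested. In 4 families 1 gene had a region and its relatives had none, and in the other 3 no gene had one. With 4 of 19 genes called, near the share of all genes, this split is not a result about paralogues. No share over other paralogue families was computed.

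eEF1alpha1 had the regions described above, whereas its duplicate eEF1alpha2 had no pooled-list region and ranked 18888 and 20626 in the replicates. eIF3d1 had 127 and eIF3d2 appeared in no list. eIF4H1 had 117 and eIF4H2 appeared in no list. In the eIF4E family the repressor eIF4EHP had 709, while eIF4E1, the general cap-binding protein gene, stood at pooled rank 12162, with 19509 in replicate 2 and 5302 in replicate 3. The summit at eIF4EHP lay 193 bp from its start and 183 bp from that of CG18428. Counted by nearest start site only, no gene of the eIF4E family had a promoter region. eIF4E6 was at pooled rank 5207 and eIF4E7 at 28873, and eIF4E3, a male germ line factor gene, eIF4E4 and eIF4E5 were in no list.

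The families without a promoter region differed in how close they came. eIF4G2, the germ line duplicate of eIF4G1, had pooled rank 3889, the closest of all members below the threshold, with 3919 in replicate 2 and 2491 in replicate 3. eIF3f1 stood at 4006 and eIF3f2 in no list, and neither eIF3g1 nor eIF3g2 had a region in any list. Of the 9 members found in no list within 500 bp, 8 belonged to a paralogue family and the other was eIF4B. Over all protein-coding genes 35.2% were in no list, against 17.6% of members.

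A top-ranked region, one of the 3707 highest of a list, was present in both replicates at 20 members, against 18.5% of all protein-coding genes. All 20 were among the 21 with a thresholded region, and the remaining one was eIF3d1, at rank 4827 in replicate 2 and 1733 in replicate 3. Over all genes with a thresholded promoter region 80.3% were top-ranked in both. Ranks were compared for the 36 members found in both lists, with a Spearman's rho of 0.929, against 0.837 over the 6938 protein-coding genes found in both. Another 5 members were in 1 replicate list only, eIF2Bepsilon in that of replicate 2 and eIF2Bbeta, eIF3e, eIF3l and eIF4E7 in that of replicate 3, and 10 were in neither. Of the genes compared, 20 of the 36 members and 2575 of the 6938 genes were top-ranked in both. The coefficients thus cover unlike mixes of strong and weak regions, and do not show that members repeat better. The points share 1 control alignment, and the coefficients describe these lists only.

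**Figure D2:**
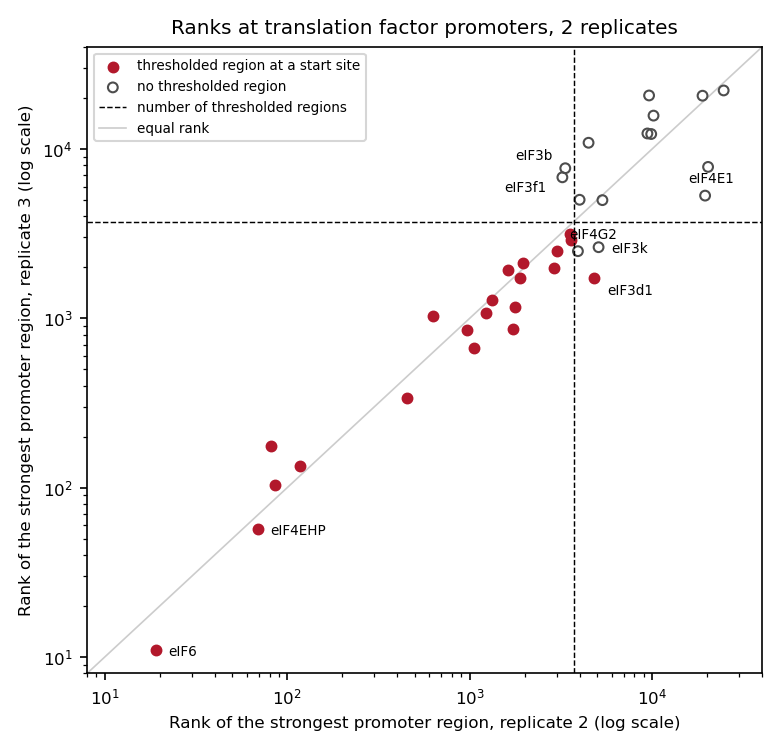
Rank of the strongest promoter region in replicate 2 (x axis) and replicate 3 (y axis), both on log axes with strong regions at the lower left, for the 36 factor genes with a region in both lists. Filled points have a thresholded region, the dashed lines mark rank 3707 and the grey line equal rank; eIF6 lies lowest and eIF3d1 is the filled point right of the vertical dashed line.

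For the 21 members with a thresholded region the larger of the 2 ranks was at the median 1.21 times the smaller, and at most 2.79 times, at eIF3d1. The thresholded list was itself made from both replicates, which favours similar ranks, and the ratio was not computed for all genes. Of the others, 4 were top-ranked in 1 replicate. eIF3b (3341 against 7694) and eIF3f1 (3221 against 6801) were so in replicate 2, and eIF3k (2629 against 5086) and eIF4G2 (2491 against 3919) in replicate 3. With 1 replicate alone the call changed for these 4 genes and for eIF3d1, and for no other member.

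Most of the strongest summits lay upstream of the gene's nearest start site, at a share near that of all genes with a promoter region. At 19 of the 21 members the strongest summit lay upstream of the nearest start site of the gene, or 90.5%, against 83.4% of all genes with a promoter region, and the median distance was 79 bp against 111 bp. The exceptions were eEF5, 13 bp downstream, and eIF2Bgamma, 30 bp downstream. Within 200 bp lay 19 summits, and the 2 farther ones were eIF4H1, 213 bp, and eIF1, 324 bp. By annotation 13 summits were intergenic, 6 were in a 5′ UTR of the same gene, that of eIF4H1 was in its own intron and that of eIF6 in the antisense RNA exon named above. Of those counted as upstream, the summits of eIF2A, eIF3h, eIF4A, eIF5B and eIF4H1 lay inside their own gene, past another of its start sites.

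**Figure D3:**
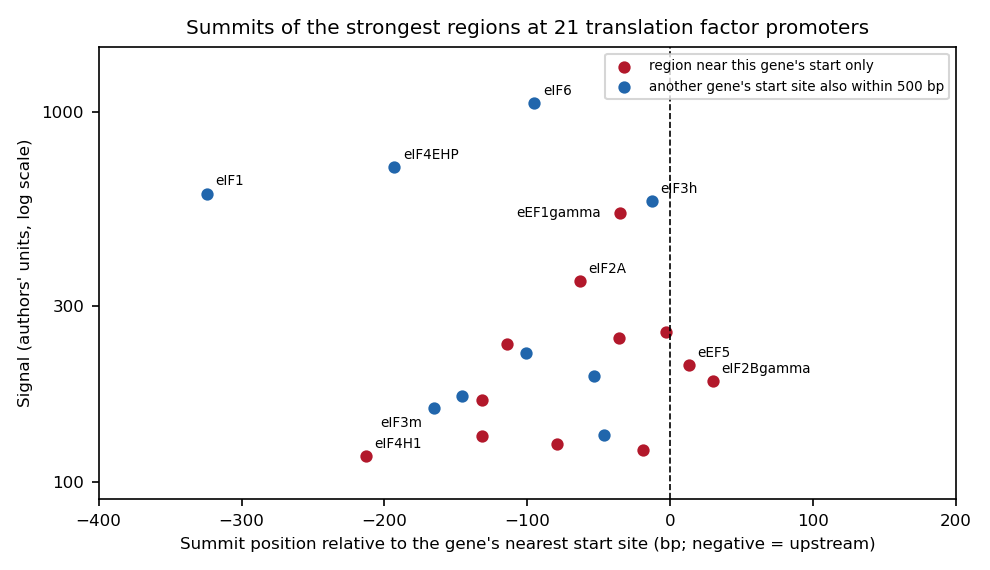
Position of the strongest summit relative to the gene's nearest start site (x axis, bp, negative upstream) and its signal (y axis, authors' units, log scale) for the 21 factor genes with a promoter region. Blue points have a start site of another gene within 500 bp and red points do not; all but eEF5 and eIF2Bgamma lie left of 0.

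Another protein-coding gene's start site lay within 500 bp of the strongest summit at 8 of the 21 members, or 38.1%, against 59.6% of all genes with a promoter region. With asRNA:CR45928 at eIF6 there were 9 shared regions, and in 7 of them the other start site was the nearer. Which of the genes such a region serves cannot be told apart in these lists. When each summit counted for its nearest start site only, 16 members had a promoter region, or 31.4%, against 16.8% of all genes. The members lost were eIF1A, eIF3a, eIF3m, eIF4EHP and eIF6.

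Genes that act beside the factors were taken from 4 lists, also drawn up with earlier results known, of which 40 of 44 names matched a gene, and their counts are to be read beside the 22.9% of all protein-coding genes with a promoter region. Among regulators and partners 10 of 19 had a promoter region, led by the ribosome-bound scaffold gene Rack1 with 481, the eIF4E-binding repressor gene Thor with 280.0, the eIF4G-like gene NAT1 with 254 and the eIF5-like gene kra with 239. Of release and recycling factors 4 of 5 had one, the recycling ATPase gene pix with 304, the release factor genes eRF1 with 199 and eRF3 with 112, and the rescue factor gene pelo with 149.7. Among enzymes that modify eEF2 or eEF5 it was 4 of 7, the diphthamide genes Dph4 with 746 and Dph1 with 324, and the hypusine genes Dhps with 209 and nero with 123. In all, 18 of 40 had a promoter region, or 45.0%, and 12 of the 40 were top-ranked in both replicates, against 18.5% of all genes. These 12 were all among the 18 with a promoter region, and among regulators and partners it was 5 of the 10. Over all genes with a promoter region 80.3% were top-ranked in both.

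The 9 matched factors of mitochondrial translation, which serve the organelle's own ribosomes, had no promoter region. The best of them by pooled rank were mEFTs at 5162, mRF1 at 5272 and mEFTu2 at 5491, and 8 of the 9 had some pooled-list region. All 9 had 1 start site, and of all protein-coding genes with 1 start site 18.1% had a promoter region. The 0 of 9 was not tested against that share. For comparison, cytoplasmic ribosomal protein genes, taken by symbol, had a promoter region at 70 of 92, or 76.1%, and mitochondrial ribosomal protein genes at 34 of 73, or 46.6%. The differences between these groups and the factor genes were not tested.

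**Figure D4:**
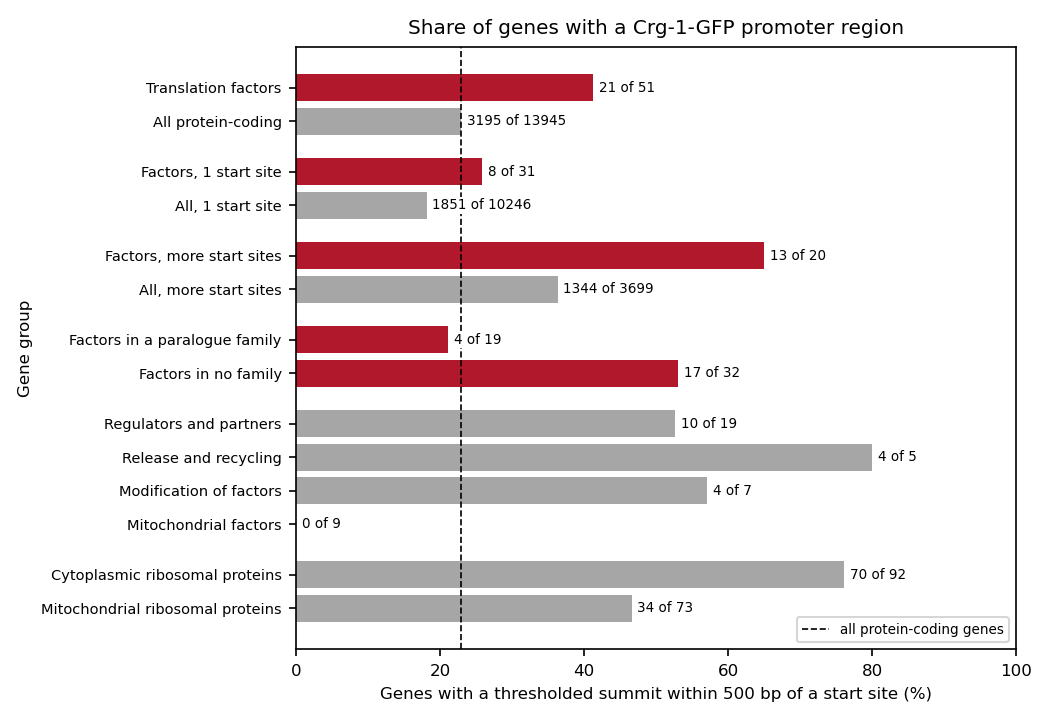
Percent of genes with a thresholded summit within 500 bp of a start site (x axis) for groups of genes (y axis), with counts beside the bars and a dashed line at the 22.9% of all protein-coding genes. Red bars are translation factor genes, 21 of 51 in all, and grey bars other groups; the mitochondrial factors, 0 of 9, lie at 0.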

How the data were processed

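Peak lists from 2 chromatin immunoprecipitation libraries were used, which form 1 group. Per the deposited file descriptions, the authors called each replicate list from that replicate's alignment with 1 control alignment common to both, the pooled list from both alignments with that control, and the thresholded list from these 3 by irreproducible discovery rate. The signal is the authors' height of each region, deposited with the lists, in units of their own, and was used here to rank, filter and describe regions of 1 list at a time. No source used here names the aligner or the peak caller. Chromatin was sonicated to 200 to 800 bp, per the labels.

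The dm6 lists were set against Ensembl release 115 start sites without transposable elements and against the Release 6 genome (Python 3.11.15, pandas 2.3.3). The dm3 lists were not used here. A gene with several regions is given by the strongest. Members and lists were chosen with earlier results of these data known, so no test of a group was made and counts stand beside those of all genes. Named were all members, genes sharing a region with one, and the 4 of highest signal in each list; the mitochondrial genes, with no thresholded region, were named by pooled rank. The assignment of summits was checked on simulated positions. Alternatives covered the distance, the start sites, the signal, the gene assignment, the overlap rule, the motif window and each replicate alone. Printed coordinates count from 1.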

Additional observations from a re-analysis of the deposited data

How the results depend on the processing

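The count of 21 members with a promoter region lay between 15 and 23 under the 8 alternatives, while the share of all genes ran from 13.7% to 25.6%. It was 21 within 250 bp and where a region had to cover a start site, 23 within 1000 bp, 22 from the top regions of replicate 2 alone and 23 from those of replicate 3 alone. With only thresholded regions at or above the list's median signal, 161, it was 15, or 29.4% against 13.7% of all genes. The genes of paralogue families with a region then numbered 2, and those of the 4 other lists 10. Start sites of coding transcripts alone changed no call, and adding NAT1, kra and eEFSec gave 23. Complexes with a region numbered 11 to 15. Of the 21 members 11 had a region under every alternative, and of the other 30 there were 24 with a region under none. With 1000 top-ranked regions a list 7 members were top-ranked in both replicates, with 10000 it was 27. The shares of all genes at these cuts were not computed, so these counts cannot be set against a background. The forkhead word was found at 1 member within 25 bp and at 5 within 100 bp, the DRE word at 3 within 25 bp. Shares over all summits were not computed for these windows. From 1 replicate alone paralogue family genes with a region numbered 4 to 5, complexes with a region 14 to 15 and genes of the other lists 16. From each replicate's own summits the forkhead count was 3 and the DRE count 5 to 6. No paired analysis was possible because there is 1 group and no test. Depth is unknown and each candidate list ends at 30000 regions, so absence from a list does not show absence of binding.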

Other observations

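Beyond the start sites, 3 thresholded summits lay inside factor genes. Of these, 2 were within the long gene eIF4EHP. One, of signal 194 at chr3R:24106254-24106693, was intronic and 2486 bp from the start of eIF4EHP, and the other, of signal 138, was 3317 bp away at a start site of Syx1A, a synaptic membrane fusion gene nested there. The last lay in an intron of eIF4G1 at chr4:922649-923088, 7846 bp from its start, with a signal of 128, so that this scaffold gene, which had no promoter region, did carry a thresholded region. Among members without a promoter region eIF2Bbeta and eEF1beta were the nearest to one, with thresholded summits 689 and 798 bp from their start sites.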
